A study of Mus musculus with 3 samples.

Results

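The inflammatory CC chemokines are small secreted proteins with a pair of adjacent cysteines that attract monocytes, macrophages, T cells and immature dendritic cells. The genes described here are Ccl2, Ccl3, Ccl4, Ccl5, Ccl6, Ccl7, Ccl8, Ccl9, Ccl12 and Ccl20, taken by the gene name printed for each probe on the array. They are 10 of 36870 gene names, and 11 of 56605 probes carry them, since Ccl4 has 2 probes. RNA came from RAW264.7, a transformed mouse cell line of macrophage type that is kept in culture, and was hybridised to 1-colour Agilent arrays. The groups were macrophages given LPS alone for 3 h, and macrophages given Lactiplantibacillus plantarum LOC1 or LOC3 (strains from fresh tea leaves) before the same LPS stimulus. Exposure to the lactobacilli was 12 h by the sample labels and longer by the methods of the study, whose text also names more than 1 dose of LPS. Each group had 1 array, so no SD, test or p-value between conditions can be given, both strain comparisons use the same LPS array, and nothing here measures the spread between cultures.

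All 14 macrophage markers, among them Adgre1, Cd68 and Csf1r, were well above background on the 3 arrays, with summed intensities of 742626 (LPS), 647972 (LOC1) and 687614 (LOC3). Single markers moved apart with the strains: log2 differences from LPS ran from -1.65 (Fcgr3, an Fc receptor) to 0.70 (Aif1) for LOC1 and from -1.42 to 0.85 for the same genes with LOC3, with medians of 0.04 and 0.06, and Fcgr3 was the only one past 2-fold. None of the 5 B cell, 5 epithelial, 6 fibroblast, 7 neutrophil or 6 osteoclast markers reached an intensity of 1000 on any array, and their numbers well above background lay between 0 and 4. Of 7 T cell markers 5 were well above background, but Cd3g and Cd8a were not, and Lck alone passed 1000. No spot was saturated, and all arrays lay on 1 slide and in 1 scan.

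Macrophages transcribe these chemokine genes after TLR4, the receptor for LPS, activates NF-kB and interferon regulatory factors. Ccl2, Ccl7, Ccl8 and Ccl12 belong to the monocyte chemoattractant protein (MCP) group, which is known for ligands of the receptor Ccr2, and mouse Ccl8 is also known as a ligand of Ccr8. Ccl3, Ccl5, Ccl6 and Ccl9 are ligands of Ccr1, and Ccl20 is the ligand of Ccr6. Ccl4 is a close relative of Ccl3. In tissues, the first groups draw in monocytes and effector T cells, and Ccl20 draws in cells that carry Ccr6.

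Among the 10 chemokines, only Ccl8 differed by at least 2-fold from LPS alone, and it did so with LOC1 and not with LOC3. Ccl12 and Ccl6 were lower with both strains, by 1.49- to 1.68-fold, and so stayed under that threshold. The remaining 7 genes lay between -0.06 and 0.25 on the log2 scale in both comparisons. Values are the background-corrected intensity of the brightest probe of a gene, and differences are of log2 intensity after each array's 75th percentile was subtracted. Since RNA was taken from whole cultures, fewer cells expressing a gene and less RNA per cell cannot be told apart. With LOC1, 1 member was at least 2-fold higher than with LPS alone, where 2.49% of the 20019 genes compared were, and 0 were lower, against 3.81% of all. With LOC3, 0 members were higher, against 2.98% of 19790 genes, and 0 were lower, against 3.18%. Their median difference was 0.03 in each comparison, beside 0.00 for all genes with LOC1 and 0.03 with LOC3.

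**Figure D1:**
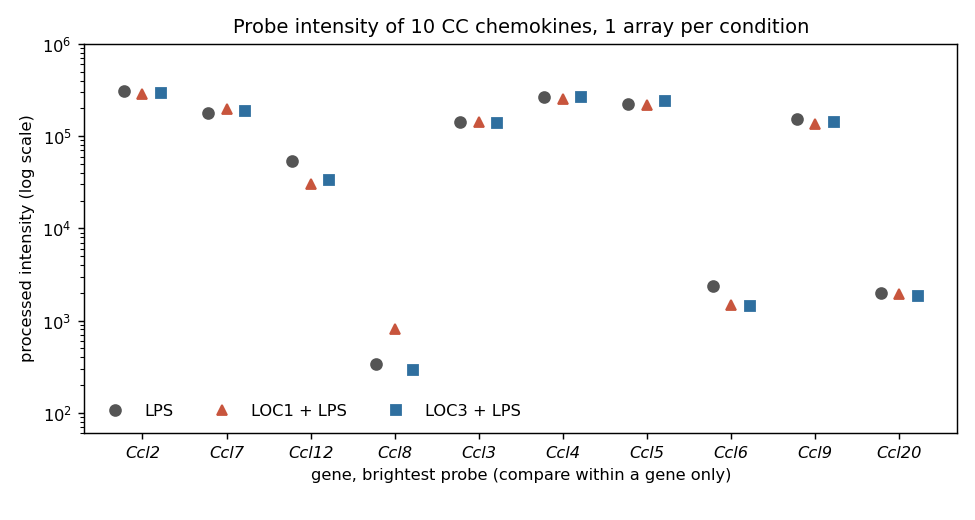
Processed intensity of the brightest probe of each chemokine on the 3 arrays, on a logarithmic axis, 1 point per array. Within Ccl8 the LOC1 point stands above the other points, within Ccl12 and Ccl6 both strain points stand below LPS, and within the other genes the 3 points lie close together. Heights are not comparable between genes, since each has its own probe.

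Noise within an array was read from probes printed 10 times on it. For bright probes, whose median intensity was 83036 with LPS, the technical SD of a log2 difference was 0.06 in each comparison. Few repeated probes lay near the dimmer chemokines: 3 within 4-fold of Ccl8, 4 within 4-fold of Ccl6 and 5 within 4-fold of Ccl20. These gave SDs of 0.15 and 0.17 for Ccl8, 0.12 and 0.13 for Ccl6, and 0.11 and 0.12 for Ccl20, for LOC1 and LOC3 against LPS in that order. This SD covers the spots of an array and leaves out labelling, hybridisation and cultures.

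The MCP genes lie side by side on chromosome 11. In the mm9 build, the probe of Ccl2 lies at chr11:81850650-81850709, that of Ccl7 at chr11:81860656-81860715, that of Ccl12 at chr11:81916710-81916769 and that of Ccl8 at chr11:81930108-81930167, all on the plus strand. Neighbours in this cluster did not share 1 pattern. Ccl2 scarcely differed from LPS alone and Ccl7 was a little higher with both strains. The last pair, Ccl12 and Ccl8, 13.4 kb apart, differed from LPS alone in opposite directions with LOC1.

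Ccl8 (MCP-2) had intensities of 342 (LPS), 811 (LOC1) and 288 (LOC3). The LOC1 array was thus the only high one, and the LOC3 array was the lowest. Its log2 difference from LPS was 1.36 with LOC1 (2.56-fold higher), and -0.15 with LOC3. The LOC1 difference was many times the technical SD near its signal, whereas the LOC3 difference was smaller than that SD. Between the strains Ccl8 was 2.84-fold higher with LOC1 and was the only one of the 10 chemokines past 2-fold there, where 0.800% of 19382 genes were higher, 1.83% lower and 2.63% past it in either direction. Its LOC1 signal was 0.107% of the scanner's saturation value, and 1 probe read it.

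Ccl12 (MCP-5), which in the mouse binds Ccr2, had intensities of 54455 (LPS), 29970 (LOC1) and 33621 (LOC3). Both strain arrays were lower than the LPS array and near each other. The log2 difference from LPS was -0.75 with LOC1 (1.68-fold lower) and -0.59 with LOC3 (1.51-fold lower), several times the technical SD of 0.06. LOC1 was below LOC3 by a log2 difference of -0.16. The 5th percentile of all genes was -0.90 with LOC1 and -0.83 with LOC3, so Ccl12 stood inside the range that held most genes.

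The probes of Ccl8 and Ccl12 share 1 run of 13 bases, the longest shared run between probes of different members. It is shown so that the overlap of the probes can be read. The stretch of 30 bases around the run is given for each 60-base probe, 5′ to 3′ as in the files, with the shared run in capitals.
Ccl8: ttctgcagCCTTGAACCTTCAcacctgagt
Ccl12: tCCTTGAACCTTCAtgtctaggctgagagt
Outside the capitals the stretches differ, and over the same arrays the Ccl8 signal was higher with LOC1 while the Ccl12 signal was lower.

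The promoters of this pair are shown because the genes are neighbours with opposite differences under LOC1. RefSeq promoters were given for 6 of the 10 members (Ccl3, Ccl6, Ccl8, Ccl9, Ccl12 and Ccl20), and Ccl2, Ccl4, Ccl5 and Ccl7 are named only. The 250 bases before each start are printed 5′ to 3′ on the plus strand from the GRCm38.p6 build, at chr11:82114935-82115184 for Ccl8 and chr11:82101595-82101844 for Ccl12. Capitals mark the run GGAAATCA, which begins at base -128 from the start in both, and TATAAA, at base -32 in Ccl8 and -31 in Ccl12.
Ccl8: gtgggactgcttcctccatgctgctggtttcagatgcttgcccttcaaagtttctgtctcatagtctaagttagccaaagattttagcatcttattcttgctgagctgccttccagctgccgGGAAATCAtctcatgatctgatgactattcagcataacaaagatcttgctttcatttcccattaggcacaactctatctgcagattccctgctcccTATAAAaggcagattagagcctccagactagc
Ccl12: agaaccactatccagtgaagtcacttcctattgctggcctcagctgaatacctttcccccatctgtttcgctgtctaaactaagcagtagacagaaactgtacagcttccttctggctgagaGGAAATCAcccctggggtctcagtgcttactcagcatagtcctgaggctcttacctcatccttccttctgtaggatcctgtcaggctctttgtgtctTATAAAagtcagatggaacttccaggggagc
Aligned over their whole length, these promoters were 56.9% identical, and the other pairs of members were 47.5% to 54.2% identical. The identity of unrelated promoters was not measured. A run of 8 bases is not particular to this pair, since the longest shared runs of the other pairs had 7 to 13 bases. TATAAA, searched on the gene's strand from 250 bases before to 50 bases after the start, was also found in the promoter of Ccl9 at base -92, and 8.32% of 32851 promoters hold it.

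Ccl2 (MCP-1), the main chemoattractant of Ccr2-bearing monocytes, had intensities of 307278 (LPS), 284587 (LOC1) and 294842 (LOC3). The 3 arrays were close to each other, and the log2 difference from LPS was 0.00 with LOC1 and 0.04 with LOC3, below the technical SD. Its probe read 42.9% of the saturation value with LPS, the highest share among the members, so no member was capped by the scanner.

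Ccl7 (MCP-3), whose probe is the next one after that of Ccl2, had intensities of 177801 (LPS), 195979 (LOC1) and 189241 (LOC3). Both strain arrays were a little higher than LPS, by 0.25 (LOC1) and 0.19 (LOC3) on the log2 scale, each over 2 technical SDs and far under 2-fold. The MCP group therefore held the highest and the lowest LOC1 difference of the 10 genes, Ccl8 and Ccl12, and also Ccl2, the nearest to 0.

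**Figure D2:**
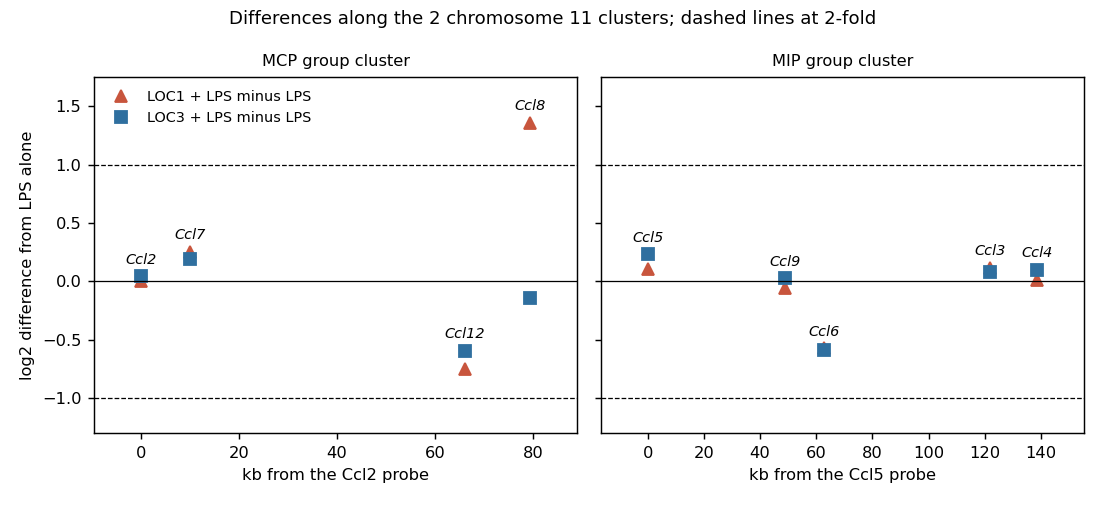
Log2 difference from LPS alone (vertical axis) against the distance in kb from the first probe of each chromosome 11 cluster, with the Ccl2 to Ccl8 cluster on the left and the Ccl5 to Ccl4 cluster on the right. Ccl12 and Ccl8, 13.4 kb apart, sit at -0.75 and 1.36 with LOC1 (triangles), and with LOC3 (squares) at -0.59 and -0.15.

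The other chromosome 11 cluster holds the macrophage inflammatory protein (MIP) genes and Ccl5. By mm9 coordinates its probes lie at chr11:83339296-83339355 for Ccl5, chr11:83388223-83388282 for Ccl9, chr11:83401997-83402056 for Ccl6 and chr11:83461358-83461417 for Ccl3, all on the minus strand, and at chr11:83478052-83478111 on the plus strand for the brighter probe of Ccl4. In this cluster Ccl6 alone was clearly lower with the strains.

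Ccl6, a ligand of Ccr1 made by myeloid cells, had intensities of 2346 (LPS), 1457 (LOC1) and 1450 (LOC3). The strain arrays were nearly equal and both were below LPS. The strains differed from LPS by log2 values of -0.57 for LOC1 (1.49-fold lower) and -0.59 for LOC3 (1.51-fold lower), over 4 times the technical SD near its signal. Between the strains it differed by 0.02.

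Ccl9 (MIP-1 gamma), which also acts through Ccr1 and is known as a product of macrophages and osteoclasts, had intensities of 151993 (LPS), 135170 (LOC1) and 144011 (LOC3). Its log2 differences of -0.06 and 0.03 did not exceed the technical SD. Ccl6 and Ccl9, 13.8 kb apart, thus differed in this respect.

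Ccl3 (MIP-1 alpha) had intensities of 141523 (LPS), 141794 (LOC1) and 139089 (LOC3). Its log2 difference from LPS was 0.12 with LOC1 and 0.08 with LOC3. These were at about 1 to 2 technical SDs, and the arrays read almost the same before scaling.

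Ccl4 (MIP-1 beta), encoded next to Ccl3, had intensities of 269081 (LPS), 251521 (LOC1) and 268204 (LOC3) on its brighter probe. On the dimmer probe, which shares 46 of its 60 bases with it, the intensities were 200875 (LPS), 189767 (LOC1) and 196378 (LOC3). On the log2 scale the brighter probe gave 0.02 for LOC1 over LPS and 0.10 for LOC3 over LPS, and the dimmer one gave 0.03 and 0.07. The probes agreed within the technical SD, but since they overlap they are not separate evidence.

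Ccl5 (RANTES), which attracts T cells and monocytes, had intensities of 221304 (LPS), 220333 (LOC1) and 241797 (LOC3). LOC3 was the highest of the 3 arrays. The log2 difference from LPS was 0.11 with LOC1 and 0.23 with LOC3, and LOC1 was below LOC3 by a log2 difference of -0.13, or about 2 technical SDs.

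Ccl20 (MIP-3 alpha), the ligand of Ccr6, lies apart from the others, with its probe at chr1:83115500-83115559 of mm9 on the plus strand. Its intensities were 2011 (LPS), 1925 (LOC1) and 1857 (LOC3). The arrays hardly differed, with differences from LPS of 0.05 for LOC1 and -0.01 for LOC3 (log2), below the technical SD near its signal.

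**Figure D3:**
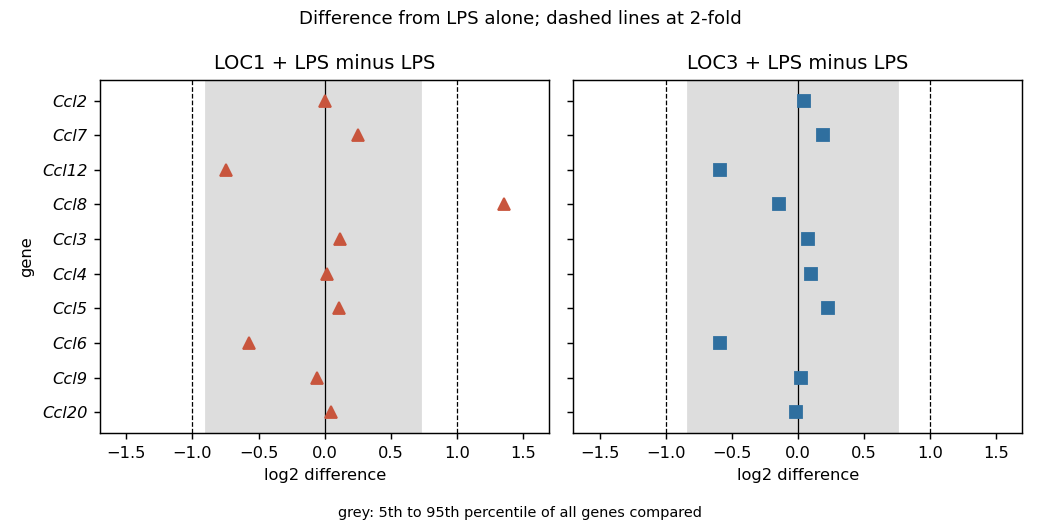
Log2 difference from LPS alone for each chemokine, with LOC1 on the left and LOC3 on the right, 1 array against 1 array. Dashed lines mark 2-fold and the grey band runs from the 5th to the 95th percentile of all genes compared (-0.90 to 0.73 with LOC1, -0.83 to 0.76 with LOC3). Ccl8 with LOC1 is the only point outside the band.

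With each strain, 5 of the 10 chemokines lay within 2 technical SDs of bright probes (0.11 with LOC1, 0.13 with LOC3), while 24.7% of all genes compared did so with LOC1 and 29.6% with LOC3. Those beyond it were Ccl3, Ccl6, Ccl7, Ccl8 and Ccl12 with LOC1, and Ccl5, Ccl6, Ccl7, Ccl8 and Ccl12 with LOC3. Ccl8 with LOC3 passed only this limit of bright probes, since its difference of -0.15 was smaller than the SD of 0.17 near its own signal. Most of the members were bright, and bright genes seldom differed by much. Of 325 genes with an intensity of at least 100000 with LPS, 1.54% were past 2-fold with LOC1 and 0.308% with LOC3, below the 6.30% and 6.15% of all genes. Ccl2, Ccl3, Ccl4, Ccl5, Ccl7 and Ccl9 were among the 325, and whether brightness had a part in their small differences was not tested.

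The strains gave nearly the same chemokine levels apart from Ccl8, as they did for most genes. The other 9 genes differed between LOC1 and LOC3 by log2 values from -0.16 (Ccl12) to 0.06 (Ccl20), with a median of -0.04. In that comparison 7 of the 10 chemokines lay within 2 technical SDs of bright probes, beside 60.8% of all genes. The 5th to 95th percentile of all genes ran from -0.44 to 0.35 there, so closeness of the strains was not particular to the chemokines.

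LPS itself raised the listed genes by more than any of them differed between the strains and LPS alone. The authors' deposited log2 ratios to unchallenged macrophages, whose array was not analysed here, listed 9 of the 10 chemokines, all as higher in each group, where 7.08% of all probes were listed as higher with LPS, 7.96% with LOC1 and 8.02% with LOC3. None of the 10 was listed as lower, beside 6.31%, 8.52% and 8.88% of probes in the same order. Every value in that table is at least 2-fold. Ccl6 and the dimmer Ccl4 probe were not listed, and since the overlapping Ccl4 probe was, a missing entry does not show a lack of response. Ccl5 had the highest measured ratio, 9.36, and Ccl9 the lowest, 1.61 (3.05-fold).

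Ccl7 and Ccl3 showed how large the LPS response was beside the differences between groups given LPS. The deposited log2 ratio of Ccl7 was 6.62 with LPS (98.2-fold), 6.90 with LOC1 and 6.85 with LOC3. That of Ccl3 was 5.21 with LPS (37.1-fold), 5.36 with LOC1 and 5.33 with LOC3. In both genes the strain columns stood slightly above LPS alone.

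Ccl12 showed the reverse order. Its deposited ratio was 16.6-fold over unchallenged macrophages with LPS, 10.1-fold with LOC1 and 11.3-fold with LOC3, and it was still raised with either strain. Ccl2 and Ccl9 were already high in unchallenged cells, with implied intensities of 34016 and 49846 on the scale of the LPS array, and their ratios scarcely varied, at 3.18, 3.21 and 3.26 for Ccl2 and 1.61, 1.59 and 1.67 for Ccl9 with LPS, LOC1 and LOC3.

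For Ccl8 and Ccl20 the deposited ratio implied an unchallenged signal under the lowest one well above background, so only bounds hold. Ccl8 was at least 20.9-fold higher than unchallenged with LPS, at least 55.8-fold with LOC1 and at least 14.5-fold with LOC3. Ccl20 was at least 123-fold higher with LPS, at least 133-fold with LOC1 and at least 93.6-fold with LOC3. These bounds also move with the lowest detected signal of each array, so their order is not a difference between strains.

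**Figure D4:**
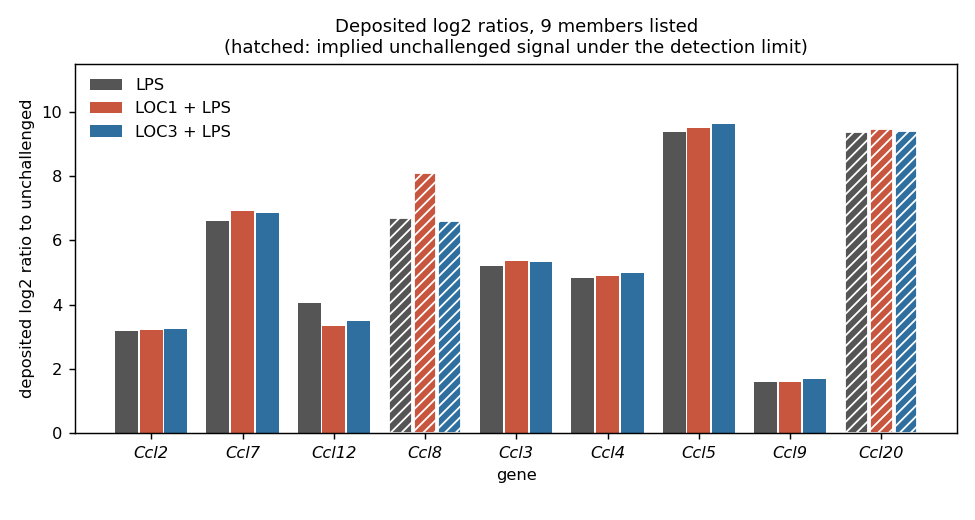
Deposited log2 ratio to unchallenged macrophages (vertical axis, from 0) of the 9 chemokines listed, for LPS, LOC1 and LOC3. Hatched bars, for Ccl8 and Ccl20, rest on an unchallenged signal under the detection limit and show the deposited value, not a bound. Ccl5 and Ccl20 have the tallest bars and Ccl9 the shortest, and the 3 bars differ visibly in height in Ccl8 and Ccl12.

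A kappaB motif, the NF-kB site taken as GGG, any 3 bases and TTCC and searched on both strands from 250 bases before to 50 bases after the start, was found in 2 of the 6 promoters, those of Ccl9 and Ccl20. It is held by 5.56% of all 32851 promoters. The 40 bases around each are shown 5′ to 3′ on the gene's strand in GRCm38.p6, at chr11:83578647-83578686 for Ccl9 and chr1:83116671-83116710 for Ccl20, with the match, which reads on the opposite strand, in capitals.
Ccl9: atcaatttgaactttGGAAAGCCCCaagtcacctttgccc
Ccl20: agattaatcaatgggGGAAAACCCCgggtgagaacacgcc
The match lay at bases -35 to -26 in Ccl9 and -80 to -71 in Ccl20, the member with the lowest listed ratio to unchallenged cells and the one with the highest bound. The interferon-stimulated response element, taken as GAAA, any 2 bases and GAAA on either strand, was found in 0 of the 6 windows, and 3.44% of all promoters hold it. These are letter matches in a short window and not binding sites.

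The probe letters themselves carried ATTTA, the core of AU-rich elements of unstable mRNAs, in 3 of 11 member probes, the pair of Ccl4 probes and that of Ccl20, and in 8.08% of all probes. The Ccl4 probes hold it within the 46 bases that they share, so the same site is counted for both. The GC content of member probes ran from 31.7% to 45.0%.

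Ccr2 and Ccr8, receptors for MCP chemokines, were well above background on all arrays. Ccr2 had intensities of 364 (LPS), 258 (LOC1) and 260 (LOC3), a log2 difference of -0.38 with each strain. Ccr8 was near the detection limit, with intensities of 67.2 (LPS), 57.9 (LOC1) and 55.3 (LOC3). Ccr1, Ccr3 and Ccr6, which bind other members, were not well above background on any array by their brightest probes. Of the 15 receptors and decoy receptors listed, 9 could be compared with LOC1 and 6 with LOC3.

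With LOC1, 2 of the 9 were past 2-fold higher, Ccr4 and Ackr4, and with both strains Ccr7 was past 2-fold lower. Ccr4 and Ackr4 were well above background on the LOC1 array alone, each at least 3.80-fold higher than with LPS, with intensities of 57.3 and 57.4 there. Ccr7, which guides migration to lymph nodes, read 119 on the LPS array and 20.1 on the LOC1 array, a log2 difference of -2.45, and with LOC3, where it was not well above background, it was at least 5.41-fold lower. Only 5 of the 15 were well above background on all arrays, with a median of -0.10 with LOC1 and -0.21 with LOC3, beside 0.00 and 0.03 for all genes compared.

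The CC ligands outside the inflammatory group were mostly near or below the detection limit. Of 11 listed, 5 could be compared with each strain, and Ccl17 and Ccl24 were past 2-fold lower with both. Ccl17, a ligand of Ccr4, had intensities of 1297 (LPS), 53.7 (LOC1) and 51.2 (LOC3). Ccl24, an eosinophil attractant, had 1001, 74.9 and 53.9 in the same order. Ccl22 had 38.3 with LPS and was seen above background on neither strain array, so it has bounds alone, at least 2.44-fold lower for LOC1 and at least 1.80-fold for LOC3. The bound for LOC1 counts as past 2-fold and that for LOC3 does not, but they differ through the detection limits of the arrays and not through a measured difference.

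Genes that regulate chemokine transcription were measured in full, all 20 of them on the arrays. Only Ifnb1, the gene of interferon beta, was past 2-fold: its intensities were 1251 (LPS), 29911 (LOC1) and 18123 (LOC3) and its log2 differences from LPS were 4.69 and 3.96. The list's median was 0.18 with LOC1 and 0.23 with LOC3. Among 8 genes of mRNA decay and feedback, only Tnip3, an inhibitor of NF-kB signalling, was past 2-fold, with intensities of 19841 (LPS), 5211 (LOC1) and 7724 (LOC3). The differences from LPS were -1.82 for LOC1 and -1.26 for LOC3 (log2), and the list's median was -0.50 and -0.22.

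Since Ccl8 was past 2-fold with 1 strain only, the genes with the nearest pair of differences were taken among 17405 genes well above background on all arrays. These were Tmem265, E130112N10Rik and Wscd2, at distances of 0.14, 0.25 and 0.31 on the log2 scale over the 2 differences. Tmem265 had intensities of 56.2 (LPS), 123 (LOC1) and 49.8 (LOC3). All 3 were dim, and the technical SD of dim probes was 0.29 for LOC1 and 0.33 for LOC3 against LPS.

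**Figure D5:**
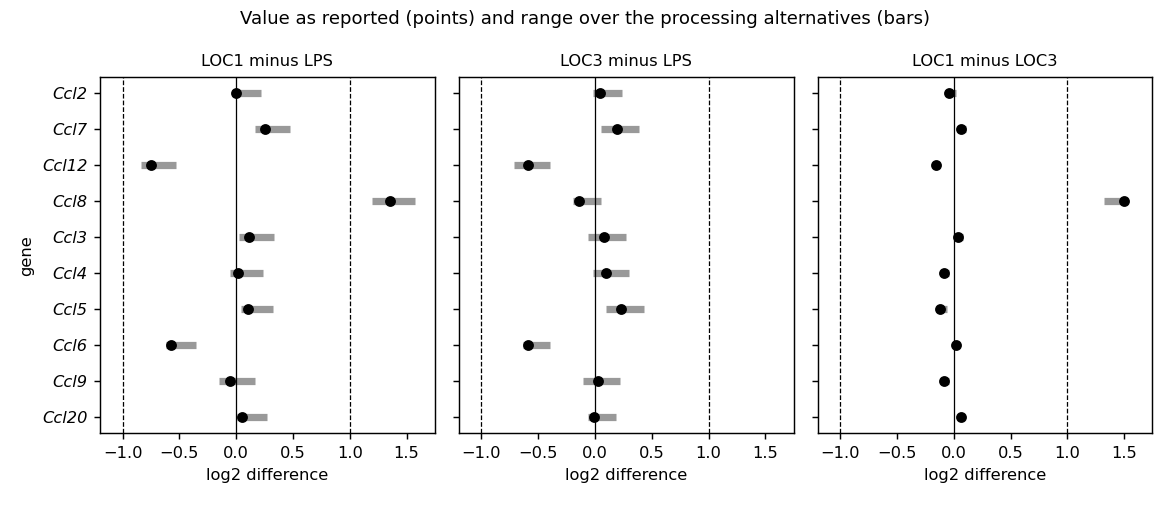
Log2 difference of each chemokine as reported (points) and its range over the processing alternatives (bars), for LOC1 and LOC3 against LPS and for LOC1 against LOC3. Ccl8 stays right of the 2-fold line for LOC1 against LPS and against LOC3, at 1.20 or more, Ccl12 and Ccl6 stay left of 0 in both comparisons with LPS, and the bars of the other members in those comparisons, apart from Ccl8, lie between -0.15 and 0.47.

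The processing changed some of the small values in sign and none of the 3 larger patterns. Over the alternatives the LOC1 difference of Ccl8 ran from 1.20 to 1.58 and that of Ccl12 from -0.84 to -0.53. With LOC3, Ccl12 ran from -0.72 to -0.39. For Ccl6 the range was -0.62 to -0.35 with LOC1 and -0.64 to -0.39 with LOC3. Ccl8 with LOC3 ran from -0.19 to 0.05, and so had no settled sign.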

How the data were processed

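RNA of 3 groups of RAW264.7 macrophages (LPS, LOC1 plus LPS, LOC3 plus LPS) was measured on 1 array per group. The intensity of each spot was deposited by the authors as background-corrected by Feature Extraction 12.0.3.1 per the file headers, with no scaling between arrays, so differences of depth or labelling between arrays remain in it. Log2 ratios to unchallenged macrophages were deposited by the authors after GeneSpring, with values under 2-fold left blank. The labels also name R 3.2.5 and limma.

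Outlier spots (118 to 135 per array) were left out, spots of a probe were averaged, and the 75th percentile of 59305 non-control spots was subtracted from log2 intensity on each array (555 with LPS, 513 with LOC1, 516 with LOC3). Signals not well above background were raised to the lowest that was (16.3, 14.5 and 19.8) if they lay under it, and otherwise kept their own value. A difference from a signal not well above background is written as at least N-fold. Between 47.8% and 51.9% of probes were well above background. The brightest probe stood for a gene, which was compared if either array showed it well above background, with 2-fold as the threshold and no test. The number of arrays limits the precision. The members and lists were chosen with earlier results of these data known. Named were every member, the list genes past 2-fold, the detected receptors of members, and the 3 genes nearest to a member past 2-fold. The cell type markers given with values are the extremes of their list. The gene name of all 11 member probes matched the RefSeq symbol of their accession. Python 3.11.15, numpy 2.4.6, pandas 2.3.3 and matplotlib 3.10.9 were used, with limma 3.58.1 for normexp with an offset of 50, and the procedure was tested on simulated data. Promoters are those of RefSeq for GRCm38.p6. A planned alignment of member proteins was not run, and exon or UTR positions of probes are not given, since the tables for them are not used here. The alternatives tried were other scalings, normexp, the deposited ratios, other filters, the mean of probes, outlier or saturated spots, a 3-fold threshold, a shorter promoter window and bounds for the deposited ratios.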

Additional observations from a re-analysis of the deposited data

How the results depend on the processing

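Of 78 counts recomputed under 14 settings, 76 were unchanged or within 1.5 times, though most are 0 or 1 and have little room to move. Some settings could not change a member count. No spot was saturated, and every member was well above background on all arrays, so leaving out saturated spots or changing the filter left the members as they were. Keeping outlier spots also returned the same member values. With a 3-fold threshold the members higher with LOC1 went from 1 to 0 both against LPS and against LOC3, because Ccl8 lies under 3-fold. No paired analysis was possible because each group has 1 array, and for the same reason no array could be left out. Median scaling moved the median of all genes by 0.22 with LOC1 and 0.20 with LOC3, and raised the share of higher calls among all calls from 39.6% to 65.7% and from 48.4% to 70.3%. Among the small differences from LPS, Ccl2, Ccl4 and Ccl9 changed sign under some alternatives with both strains, and Ccl3, Ccl8 and Ccl20 with LOC3. Median scaling adds the same amount to every difference of a comparison, and by that amount Ccl9 with LOC1 and Ccl8 and Ccl20 with LOC3 changed sign. For the other sign changes the cause was not tested. Quantile normalization and normexp moved that share by over 10 percentage points with LOC1 (to 50.7% and 50.6%), and normexp and the 3-fold threshold with LOC3 (to 61.5% and 63.9%). The counts of all genes higher and lower, 499 and 762 with LOC1 and 589 and 629 with LOC3, were 213 and 208 and then 252 and 158 under normexp, 184 and 226 and then 255 and 144 at 3-fold, and 890 and 465 and then 890 and 376 under median scaling. The deposited ratios, over fewer genes, gave 298 and 419 and then 294 and 385, and genes detected on both arrays gave 334 and 511 and then 296 and 416. The counts reached 1434 and 2405 and then 1649 and 2131 with no filter and no floor. The planned alignment of member proteins was not run. The 75th percentile over probes in place of spots was chosen after seeing the data.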
